A study of Mus musculus with 16 samples.

Results

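Cacng4, Myrip, Rnd2, Zdhhc2, Rcan2, Ctnnal1, Lrrtm1, St6galnac5 and Asphd2 are 9 of the 56748 genes counted in the colon of mice with and without the endothelin receptor gene Ednrb. They were chosen by their measured levels, since each had a lower value in every proximal colon library of Ednrb -/- mice than in every proximal colon library of WT mice. The level used was CPM, the reads of a gene as a share of its library, scaled to a common library size. Levels in the proximal colon are therefore given as a description and were not tested. The distal colon libraries were not used to choose the genes, and there the genotype difference was tested.

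Mice without Ednrb are a model of Hirschsprung disease (HSCR), in which neural crest cells fail to colonise the end of the gut and the distal colon lacks ganglia. RNA came from a strip of longitudinal muscle peeled off together with its myenteric plexus, in 4 libraries each of HSCR and WT mice for the proximal and for the distal colon. HSCR mice carried the Ednrb tm1Ywa allele on both chromosomes, WT mice were their littermates, and both were of a hybrid C57BL6/J-129Sv background, male and female, and 2 to 4 weeks old. The allele is carried in the germline and is not limited to one cell type. The titles of 8 libraries name the distal colon while their tissue entries name the proximal colon, and these libraries were taken as distal.

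Several of the 9 genes are known from neurons or from synapses. AMPA receptors, the fast glutamate receptors, are trafficked by auxiliary subunits, anchored beneath the membrane by palmitoylated scaffold proteins and aligned with the presynaptic cell by adhesion molecules. Cacng4 encodes such an auxiliary subunit, Zdhhc2 an enzyme that palmitoylates scaffold proteins, and Lrrtm1 a postsynaptic adhesion protein that binds neurexins. Myrip encodes an adaptor between Rab27 on secretory organelles and myosin motors, Rnd2 a small GTPase that acts in neuronal migration and neurite growth, and Rcan2 a regulator of the phosphatase calcineurin. Ctnnal1 encodes a relative of the alpha-catenins, St6galnac5 a sialyltransferase that acts on gangliosides, and Asphd2 a protein with an aspartate beta-hydroxylase domain. In bulk tissue, a loss of cells and a loss of RNA per cell cannot be told apart.

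The libraries held between 21384372 and 45831881 counted reads, of which mitochondrial genes took between 4.32% and 49.8%. In the proximal colon this share was 49.8%, 17.8%, 7.31% and 34.6% in WT and 5.56%, 6.68%, 6.34% and 20.1% in HSCR libraries, and its part in the results was not tested beyond a distal fit without these genes, which also had 4 of 9 genes at the unadjusted limit. Position along the colon was read from Hoxd13, a gene of the hindgut end, which lay between 0.861 and 23.9 CPM in WT proximal and between 117 and 215 CPM in WT distal libraries. HSCR proximal library 1 went against its label with 125 CPM of Hoxd13, and HSCR distal library 1 did so with 0.615 CPM. Whether these libraries were exchanged with each other was not tested, and HSCR proximal library 1 is among the libraries that chose the genes. HSCR distal library 4 also went against its label, with 14.0 CPM, within the range of the WT proximal libraries. Groups were kept as labelled, so that a library is named by its label throughout. The distal tests of the 9 genes are given with and without HSCR distal library 1 or 4. Proximal fold changes and counts of partner genes are given with and without HSCR library 1 of the segment. Comparisons with neuronal genes, cell type lists, correlations and fits with other tools kept all libraries. No fit left out both HSCR distal libraries 1 and 4. Ednrb itself lay between 33.8 and 67.1 CPM in WT proximal and between 7.84 and 37.4 CPM in HSCR proximal libraries. In the distal colon it was highest in HSCR library 1, at 94.7 CPM, against 11.8 to 43.0 CPM in WT and 5.43 to 9.48 CPM in the other HSCR libraries. Its level in HSCR distal library 1 therefore goes against the genotype label, and HSCR proximal libraries 3 and 4 were above the lowest WT proximal library. Counts per gene do not show whether these reads come from the disrupted part of Ednrb.

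The stretches of the genome directly before the transcription start are shown for 3 of the genes, because they differ in base composition. They were read from the GRCm39 genome at the start of the main GENCODE transcript, for genes where the stretch overlaps no annotated exon, and capitals mark GGGCGG or its reverse complement. Asphd2 has the stretch chr5:112542747-112542866 on the minus strand, Zdhhc2 chr8:40876369-40876488 on the plus strand and St6galnac5 chr3:152687905-152688024 on the minus strand.
Asphd2: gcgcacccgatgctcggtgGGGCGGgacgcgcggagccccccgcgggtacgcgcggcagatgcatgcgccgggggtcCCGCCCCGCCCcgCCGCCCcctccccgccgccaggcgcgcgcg
Zdhhc2: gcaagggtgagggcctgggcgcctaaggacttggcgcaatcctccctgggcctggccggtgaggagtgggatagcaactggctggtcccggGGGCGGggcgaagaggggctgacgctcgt
St6galnac5: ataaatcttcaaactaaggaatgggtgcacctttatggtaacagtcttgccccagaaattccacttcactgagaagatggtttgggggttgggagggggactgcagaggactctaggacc
Over the 250 bases before the start, G and C made up 75.6% in Asphd2, 58.8% in Zdhhc2 and 41.6% in St6galnac5, against a median of 53.2% over 21770 protein-coding genes. The share was highest in Cacng4, at 85.2%. The letters GGGCGG, searched on both strands, were found in 7 of the 9 windows and in 36.3% of all windows. Rcan2 and St6galnac5 had none. The E-box CAGCTG was in the window of Rnd2 alone, against 11.9% of all windows. The TATA box letters TATAAA were in 0 of the 9 windows and in 11.9% of all, and the CCAAT box was in 0 of the 9 and in 36.5% of all. The E-box CACGTG was in 0 of the 9, against 6.26% of all, and the homeodomain core TAATTA was in 0 of the 9, against 5.18% of all. A window that overlaps another gene shares these letters with it.

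In the proximal colon the 9 genes had mean levels 2.97 (Ctnnal1) to 14.7 (St6galnac5) times lower in HSCR than in WT mice, and this gap is what chose them. Of 16664 genes tested in the proximal colon, 471 (2.83%) had every HSCR library below every WT library, and all 9 genes are among them by choice. Leaving out HSCR proximal library 1, 682 genes (4.09%) were separated in this way. Ranked by the fold between the lowest WT and the highest HSCR library, the 9 genes stood between places 5 and 86 of the 471. Ranked by the p of edgeR's quasi-likelihood test in the proximal colon, they stood between places 2 and 13 of the 16664 genes. They are thus from the top of the proximal contrast. Ctnnal1 was the closest to the limit, with 51.0 CPM in the lowest WT and 29.8 CPM in the highest HSCR library, a 1.71-fold gap. Just outside it lay Ywhab, with 362.3 and 362.7 CPM.

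Cacng4, on chromosome 11 from 107623183 to 107685383 in mm39, was measured at 27.5, 44.9, 23.1 and 25.4 CPM in WT proximal libraries 1 to 4 and at 3.72, 3.77, 5.60 and 3.42 CPM in the HSCR libraries. The HSCR values were close to each other and the lowest WT library was 4.12 times the highest of them. The log2 fold change, HSCR minus WT, was -2.89 with a standard error (SE) of 0.34. Lrrtm1, on chromosome 6 from 77219672 to 77234774, was measured at 12.0, 10.1, 31.6 and 29.8 CPM in WT and at 1.10, 0.553, 3.01 and 2.15 CPM in HSCR proximal libraries. Libraries 3 and 4 were the high ones in both genotypes, and the log2 fold change was -3.63 (SE 0.65). Zdhhc2, on chromosome 8 from 40876856 to 40963309, stood at 81.9, 37.8, 66.9 and 76.4 CPM in WT and at 18.3, 13.3, 21.8 and 17.8 CPM in HSCR proximal libraries. WT library 2 was the low one, still 1.74 times the highest HSCR library, and the log2 fold change was -1.91 (SE 0.31).

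Myrip, on chromosome 9 from 120130579 to 120303907, was measured at 64.6, 56.0, 31.5 and 32.5 CPM in WT and at 2.65, 6.81, 7.44 and 4.62 CPM in HSCR proximal libraries. WT libraries 1 and 2 held more of it than WT libraries 3 and 4, an order opposite to that of Lrrtm1, and the log2 fold change was -3.12 (SE 0.43). Rnd2, on chromosome 11 from 101355825 to 101362679, lay between 68.3 and 91.2 CPM in WT and at 9.69, 15.2, 31.4 and 22.4 CPM in HSCR proximal libraries, with a log2 fold change of -2.08 (SE 0.36). Per length it was the highest of the 9, with 40.8 ± 5.88 FPKM (reads per gene length and library size, mean ± SD, n = 4) in WT and 9.69 ± 4.34 FPKM in HSCR mice. Rcan2, on chromosome 17 from 44112242 to 44350407, lay between 26.0 and 36.8 CPM in WT and between 6.01 and 11.1 CPM in HSCR libraries (log2 fold change -1.79, SE 0.28). Ctnnal1, on chromosome 4 from 56810935 to 56865188, lay between 51.0 and 85.6 CPM in WT and between 17.5 and 29.8 CPM in HSCR libraries and had the smallest log2 fold change, -1.60 (SE 0.27).

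St6galnac5, on chromosome 3 from 152522718 to 152687883, was the least abundant per length, at 0.677 ± 0.239 FPKM in WT and 0.0461 ± 0.0137 FPKM in HSCR proximal colon (mean ± SD, n = 4 each). Its CPM was 2.58, 4.48, 6.27 and 3.24 in WT and 0.225, 0.207, 0.416 and 0.282 in HSCR libraries. This was the widest gap of the 9 genes, 6.20-fold between the nearest libraries, with a log2 fold change of -3.86 (SE 0.61). The HSCR values rest on few reads. Asphd2, on chromosome 5 from 112532220 to 112542732, was measured at 5.31, 17.2, 17.6 and 11.1 CPM in WT and at 2.22, 2.42, 2.50 and 1.87 CPM in HSCR libraries, and its log2 fold change was -2.51 (SE 0.46). The 4 HSCR values of Asphd2 were the most even of any of the genes, with a coefficient of variation of 12.4%. Leaving out HSCR proximal library 1 left the 9 log2 fold changes between -3.75 and -1.71.

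**Figure D1:**
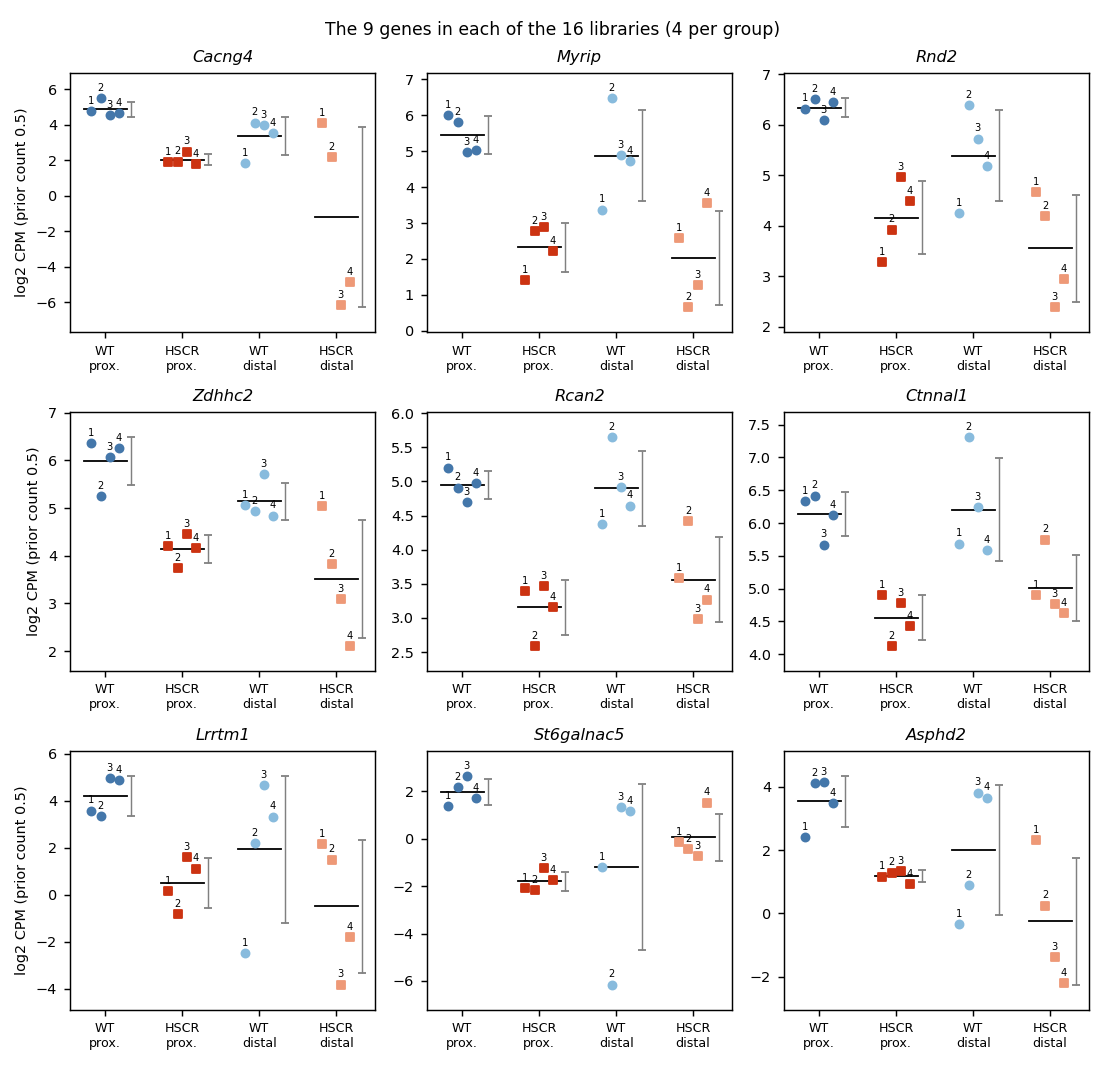
Level of each of the 9 genes in 16 libraries, on the vertical axis as log2 CPM with a prior count of 0.5. Points are libraries, numbered by replicate within the 4 groups, black lines are group means and grey bars 1 SD (n = 4). The 2 proximal groups are apart in each panel by the choice of the genes, and in the distal colon the groups overlap in all 9 panels.

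In the distal colon Myrip, Rnd2, Rcan2 and Ctnnal1 had lower levels in HSCR than in WT mice at an unadjusted p under 0.05, and no gene passed the test after adjustment. These 4 of 9 genes compare with 300 of 17059 tested genes (1.76%) that were lower at the same limit. After Benjamini-Hochberg adjustment over all genes, 0 of the 9 and 0 of all genes (0.0%) were lower at 0.05, with edgeR's quasi-likelihood test. The log2 fold change was negative for 9 of 9 genes, against 46.1% of all genes, with St6galnac5 at -0.0019, and the median of the 9 was -1.29 against 0.04 over all genes. None of the 9 had every HSCR below every WT distal library, a pattern seen in 197 genes (1.15%). The adjusted call depended on the tool. RUVr, which removes 4 factors of unwanted variation, called 8 of the 9 lower after adjustment, against 5.52% of all genes. With limma-voom, run with a quality weight for each library, 7 of the 9 were at the unadjusted limit, against 5.99%.

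Myrip was measured at 10.4, 88.9, 29.7 and 26.6 CPM in WT distal libraries 1 to 4 and at 5.95, 1.57, 2.40 and 11.8 CPM in the HSCR libraries. Only HSCR library 4 rose above the lowest WT library, which was WT library 1. The log2 fold change was -2.83 (SE 0.83), with an unadjusted p of 0.00753 and an adjusted p of 0.9998 by edgeR's quasi-likelihood test. Rcan2 lay at 20.8, 50.2, 30.2 and 25.0 CPM in WT and at 12.0, 21.3, 7.88 and 9.64 CPM in HSCR distal libraries. HSCR library 2 and WT library 1 met, and the log2 fold change was -1.29 (SE 0.44, unadjusted p = 0.0158 by edgeR). Ctnnal1 lay at 51.5, 158.5, 75.9 and 47.9 CPM in WT and at 30.0, 53.7, 27.3 and 24.8 CPM in HSCR distal libraries. Here too HSCR library 2 was the high one, and the log2 fold change was -1.29 (SE 0.46, unadjusted p = 0.0212 by edgeR).

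Rnd2 was measured at 19.1, 84.2, 53.0 and 36.5 CPM in WT and at 25.4, 18.3, 5.25 and 7.74 CPM in HSCR distal libraries. WT library 1 was lower than HSCR library 1, and the log2 fold change was -1.73 (SE 0.62, unadjusted p = 0.0214 by edgeR). Zdhhc2 lay at 33.4, 30.7, 52.2 and 28.7 CPM in WT and at 33.0, 14.2, 8.56 and 4.32 CPM in HSCR distal libraries. HSCR library 1 lay among the WT libraries and the other 3 below them, with a log2 fold change of -1.24 (SE 0.59, unadjusted p = 0.0652 by edgeR).

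The receptor and synapse genes Cacng4 and Lrrtm1, and Asphd2, spread over a far wider range in the distal colon. Cacng4 was measured at 3.51, 17.3, 15.9 and 11.5 CPM in WT distal libraries and at 16.8 and 4.49 CPM in HSCR libraries 1 and 2. HSCR library 4 held 1 read of Cacng4 and HSCR library 3 held 0 reads, which allows up to 0.0847 CPM at 3 counts. The log2 fold change was -1.12 with an SE of 1.60 (unadjusted p = 0.501 by edgeR). Lrrtm1 lay at 0.161, 4.63, 25.6 and 10.1 CPM in WT and at 4.47, 2.81, 0.0565 and 0.274 CPM in HSCR distal libraries, with a log2 fold change of -2.35 (SE 1.46, unadjusted p = 0.143 by edgeR). Asphd2 lay at 0.773, 1.82, 14.0 and 12.6 CPM in WT and at 4.97, 1.17, 0.367 and 0.206 CPM in HSCR distal libraries, with a log2 fold change of -2.05 (SE 1.21, unadjusted p = 0.125 by edgeR). In these 3 genes WT library 1 was the lowest WT library and HSCR library 1 the highest HSCR library.

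St6galnac5 had a log2 fold change near 0 in the distal colon, with a wide error. Its level was 0.419, 0, 2.54 and 2.26 CPM in WT and 0.894, 0.729, 0.593 and 2.88 CPM in HSCR distal libraries. WT library 2 held 0 reads, which allows up to 0.0842 CPM at 3 counts, and HSCR library 4 was the highest of the 8. The log2 fold change was -0.0019 with an SE of 1.27 (unadjusted p = 0.999 by edgeR), so a change of either direction was not resolved, and a difference from the other genes was not tested. Whether its genotype difference differed between the segments was not tested, because the proximal difference had chosen the gene.

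Of the distal libraries, HSCR 1 and 3 lay below the lowest WT proximal library for all 9 genes, HSCR 2 and 4 and WT 1 and 4 for 8 of them, and WT 2 and 3 for 5 and 4. That limit comes from the WT proximal levels that chose the genes. The share of all genes below it was not counted, so these counts are a description only. Without HSCR distal library 1, which had a proximal level of Hoxd13, 6 of 9 genes were lower at an unadjusted p under 0.05 in the distal colon, against 4.13% of the genes tested, and 0 were lower after adjustment. Zdhhc2 then had a log2 fold change of -2.01 (SE 0.48, unadjusted p = 0.00316 by edgeR), Asphd2 of -3.63 (SE 1.24, unadjusted p = 0.0190) and Cacng4 of -2.96 (SE 1.77, unadjusted p = 0.132). Rnd2 and Zdhhc2 had every remaining HSCR library below every WT distal library, a pattern of 3.28% of all genes without that library. Without WT distal library 1 the count of genes separated in this way was 4 of 9, against 3.9% of all genes. Without HSCR distal library 4, also at a proximal level of Hoxd13, 2 of 9 genes (Myrip and Rcan2) were lower at an unadjusted p under 0.05, against 1.33% of all genes, and 1 (Myrip) was separated, against 1.88%.

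Library names differ in form between replicates 1 and 2 and replicates 3 and 4. The names of the latter carry one prefix in the distal colon, and in the proximal colon HSCR library 3 has another prefix than HSCR library 4 and both WT libraries, so that the names do not make these one series there. In the distal colon 5 of 9 genes had a lower mean log2 CPM in HSCR mice in replicates 1 and 2, and 1 gene, Myrip, had both HSCR libraries below both WT libraries, against 14.8% of all genes. In replicates 3 and 4 all 9 had a lower mean and 8 were separated, against 21.7% of all genes, St6galnac5 being the other. The doubted HSCR distal library 1 is one of replicates 1 and 2, and HSCR distal library 4 one of replicates 3 and 4.

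**Figure D2:**
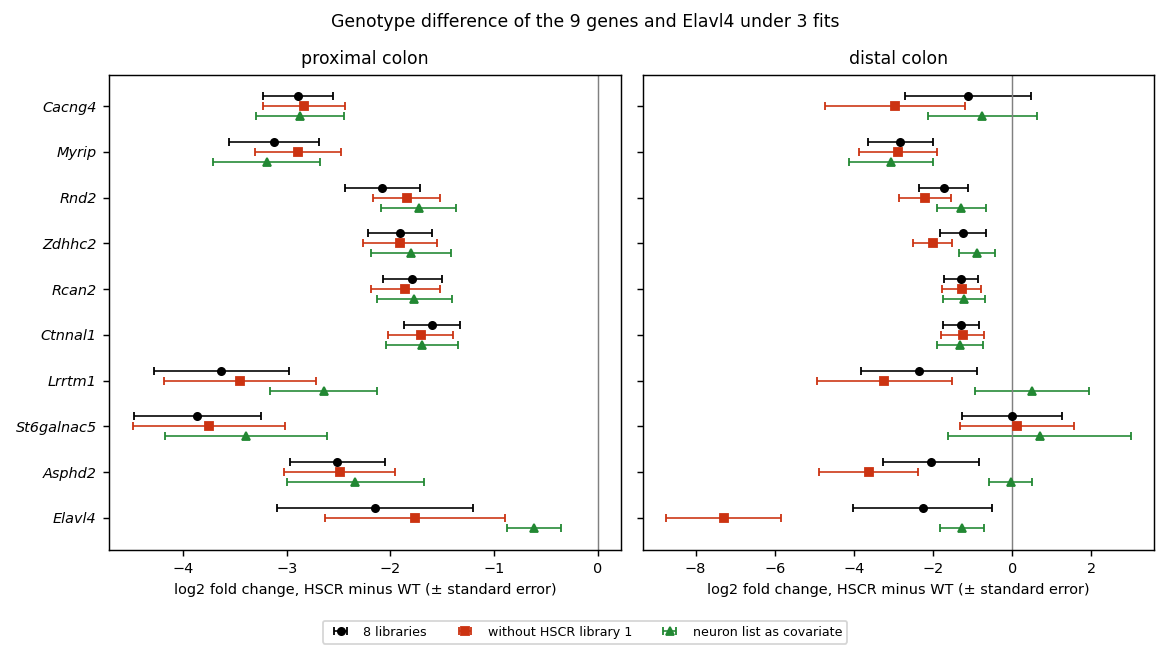
Log2 fold change, HSCR minus WT, of the 9 genes and Elavl4 in the proximal (left) and distal (right) colon. Symbols are 3 fits (all 8 libraries of a segment, without HSCR library 1, with the neuron list as a covariate) and bars are 1 standard error. The horizontal scales of the panels differ. The proximal values are those that chose the 9 genes, and Elavl4 is part of the neuron list. Myrip, Rcan2 and Ctnnal1 stay at nearly the same value under the 3 distal fits, while Lrrtm1 moves from -2.35 to 0.50 with the neuron list.

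Neuronal genes also differed widely between libraries. Elavl4, which encodes the neuronal RNA-binding protein HuD, was measured at 30.3, 72.1, 183 and 137 CPM in WT and at 3.07, 3.84, 49.9 and 39.6 CPM in HSCR proximal libraries. HSCR libraries 3 and 4 were above WT library 1, so the groups overlap. In the distal colon Elavl4 lay at 2.45, 22.2, 110 and 79.0 CPM in WT and at 41.2, 0.438, 0.508 and 0.0913 CPM in HSCR libraries. The mean log2 CPM of 23 enteric neuron genes spanned 4.50 to 7.42 in WT against 1.66 to 5.80 in HSCR proximal libraries, and 1.33 to 6.68 against -1.08 to 5.33 in the distal colon. The mean over the 9 genes spanned 4.71 to 4.89 in WT against 1.93 to 2.75 in HSCR proximal libraries, and 2.28 to 4.59 against 0.27 to 3.25 in the distal colon. The proximal gap of the 9 genes is fixed by their choice, and their narrow range within each proximal group is not independent of it.

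**Figure D3:**
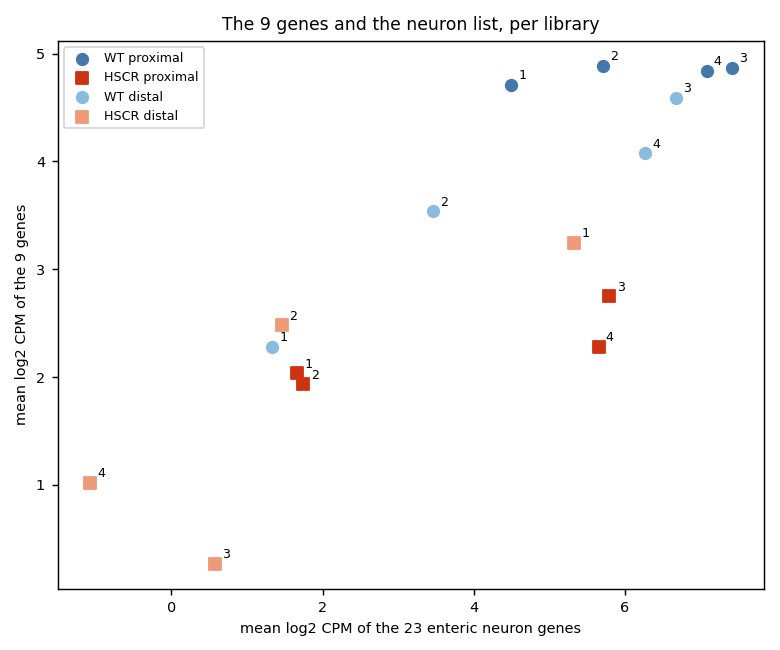
Mean log2 CPM of the 9 genes (vertical) against that of 23 enteric neuron genes (horizontal) in each of 16 libraries, numbered by replicate. The WT proximal libraries stay between 4.71 and 4.89 for the 9 genes while their neuron level runs from 4.50 to 7.42, and HSCR proximal libraries 3 and 4 lie at 2.75 and 2.28 with neuron levels of 5.80 and 5.65. The proximal levels chose the 9 genes but not the neuron genes, so the gap between the proximal groups on the vertical axis is fixed by the choice. The narrow WT range is no separate result, since a high rank by proximal p (places 2 to 13) favours genes that vary little within a group. It is also a mean over genes of opposite order, such as Myrip and Lrrtm1. Single genes had WT proximal coefficients of variation from 12.3% (Rnd2) to 54.6% (Lrrtm1).

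Single libraries in which Elavl4 was higher in HSCR than in WT mice are set side by side here. HSCR proximal libraries 3 and 4 held 1.65 and 1.31 times the Elavl4 of WT proximal library 1, with neuron list means of 5.80 and 5.65 against 4.50. The 9 genes were lower in these 2 libraries because that is how they were chosen, and only the sizes are a description, from 2.13-fold (Asphd2) to 8.69-fold (Myrip) in HSCR library 3 and from 2.84-fold (Asphd2) to 13.98-fold (Myrip) in HSCR library 4. In the distal colon, which did not choose the genes, HSCR library 1 held 16.8 times the Elavl4 of WT library 1. Myrip, Rcan2 and Ctnnal1 were lower in it, at 0.574, 0.577 and 0.583 times the WT level, and Zdhhc2 was level at 0.991 times. Rnd2 stood at 1.33 times, St6galnac5 at 2.14 times, Cacng4 at 4.80 times, Asphd2 at 6.43 times and Lrrtm1 at 27.8 times the WT level. Each of these is a comparison of single libraries without a replicate check. HSCR distal library 1 is the doubted one, with a proximal level of Hoxd13 and an Ednrb level against its genotype label. WT distal library 1 had the lowest neuron list mean of the WT distal libraries, 1.33. The mean log2 CPM of epithelial genes was 6.27 in it and 3.81 in HSCR distal library 1, so tissue makeup differed as well.

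As a log2 ratio to Elavl4 or to the neuron list, none of the 9 genes separated the genotypes in either segment. In the proximal colon 0.066% of all genes were lower in every HSCR library as a ratio to Elavl4 and 0.09% as a ratio to the neuron list, and in the distal colon the shares were 0.00586% and 0.0586%. The mean ratio to the neuron list was lower in HSCR than in WT proximal libraries for 4 of the genes (Cacng4, Myrip, Lrrtm1 and St6galnac5) and higher for 5 (Rnd2, Zdhhc2, Rcan2, Ctnnal1 and Asphd2). It averaged -1.98 in WT and -3.20 in HSCR proximal libraries for Lrrtm1, and -0.04 and 0.84 for Ctnnal1. In the distal colon it was higher in HSCR libraries for 8 of the 9 genes, Cacng4 being the other, at -1.07 in WT and -2.77 in HSCR libraries. The neuron list itself had a mean log2 CPM difference, HSCR minus WT, of -2.46 proximally and -2.86 distally. A gene that fell by less than the list has a higher ratio. The share of all genes with a higher or lower mean ratio was not counted, so these counts are no trait of the 9 genes.

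With the neuron list as a covariate in the distal colon, Myrip had a log2 fold change of -3.06 (SE 1.05, unadjusted p = 0.0193 by edgeR), Ctnnal1 -1.32 (SE 0.58, unadjusted p = 0.0508) and Rcan2 -1.21 (SE 0.54, unadjusted p = 0.0532). Rnd2 had -1.28 and Zdhhc2 -0.89. Asphd2 went to -0.04 (SE 0.55) and Lrrtm1 to 0.50 (SE 1.43). In that fit 1 of 9 genes was lower at an unadjusted p under 0.05, against 1.28% of all genes.

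**Figure D4:**
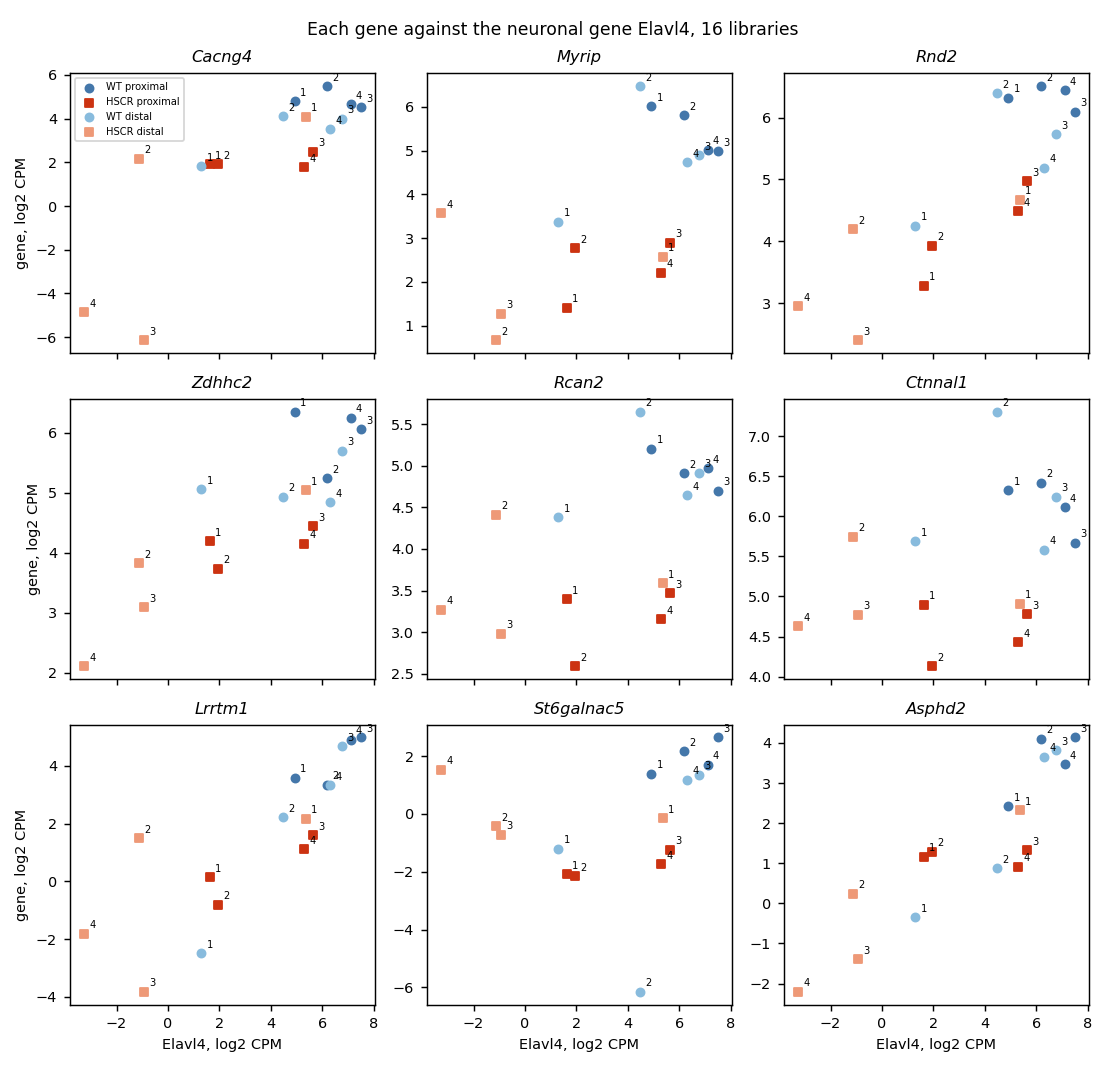
Level of each of the 9 genes (vertical, log2 CPM) against Elavl4 (horizontal, log2 CPM) in 16 libraries, numbered by replicate and marked by group. Asphd2 and Lrrtm1 run along with Elavl4, with correlations of 0.90 and 0.83, while Ctnnal1 and St6galnac5 run less closely with it, at 0.40 and 0.23. The libraries include the proximal ones that chose the 9 genes.

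Marker lists of other cell types differed between libraries as well. The mean log2 CPM of 10 enteric glia genes spanned 4.71 to 5.37 in WT against 2.20 to 4.13 in HSCR proximal libraries, so that the groups did not overlap, and 3.27 to 5.12 against 1.20 to 4.20 in the distal colon. S100b, a glial calcium-binding protein, had a log2 fold change of -2.78 (SE 0.67, unadjusted p = 0.00237, adjusted p = 0.607 by edgeR) in the proximal colon. Epithelial genes spanned -1.56 to 6.36 in WT against 2.96 to 9.29 in HSCR proximal libraries over 12 genes, of which 4 were at 0 in at least 1 library. Smooth muscle genes spanned 10.5 to 12.2 in WT against 7.90 to 12.4 in HSCR proximal libraries over 8 genes. The low one was HSCR library 2, which was the highest in epithelial genes. Adipocyte genes spanned -0.25 to 3.49 in WT and -1.45 to 0.80 in HSCR proximal libraries over 7 genes, of which 5 were at 0 in at least 1 library. Plin1, a lipid droplet protein, had a log2 fold change of -6.36 (SE 1.43, unadjusted p = 0.00145, adjusted p = 0.527 by edgeR) there. In the distal colon epithelial genes spanned 2.47 to 6.27 in WT against 2.04 to 8.07 in HSCR libraries, with HSCR library 3 the highest. Smooth muscle genes spanned 10.4 to 12.0 against 10.8 to 12.0 there, and adipocyte genes 0.00 to 1.17 against -1.16 to 3.78. The part of glia, epithelium, muscle and adipocytes in the levels of the 9 genes was not tested.

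Across the 16 libraries the 9 genes correlated with Elavl4 at a Pearson r of log2 CPM between 0.23 (St6galnac5) and 0.90 (Asphd2). These values describe libraries that share their genotype, segment and tissue makeup, and the proximal ones among them chose the genes. A common genotype difference is thus built into the pairs among the 9 genes and into their mean. No values for other genes chosen in this way are given beside them. Over the distal libraries alone, r with Elavl4 ran from -0.09 (St6galnac5) to 0.94 (Asphd2). The 36 pairs among the 9 genes had r between 0.02 and 0.97 with a median of 0.66. Rcan2 and Ctnnal1 were each other's closest gene of all tested, at 0.97. The gene most like Cacng4 was Gpr45 (0.98), that most like Rnd2 was S100b (0.97), and that most like Lrrtm1 was 6330403K07Rik (0.97). Asphd2 was closest to Oprk1, which encodes the kappa opioid receptor (0.95), Zdhhc2 to Cmtm5 (0.94), Myrip to Unc13c, a synaptic vesicle priming gene (0.90), and St6galnac5 to Spag1 (0.83). The mean of the 9 genes ran most closely with Sntb1 (0.94), Necab2 (0.94) and Unc13c (0.93), against 0.81 for Elavl4.

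The families and partners of the 9 genes were followed in lists of 116 genes. Each list is described by its counts, by its highest gene per length, and by genes named for an unadjusted p under 0.05 after their values were seen. Of 105 tested in the proximal colon, 9 were lower and 3 higher in HSCR mice at an unadjusted p under 0.05, against 4.13% and 2.48% of all genes, and 0 passed after adjustment by edgeR's quasi-likelihood test. Of 105 tested in the distal colon, 8 were lower and 0 higher, against 1.76% and 0.879%, and again 0 passed. Without HSCR proximal library 1 the proximal counts were 3 lower and 2 higher of 106, against 2.92% and 2.77% of all genes. Without HSCR distal library 1 the distal counts were 15 lower and 1 higher of 108, against 4.13% and 1.11%.

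A pair of the lists had negative log2 fold changes in all tested genes, those of the receptor and of the synapse, where 46.8% of all genes were negative in the proximal and 46.1% in the distal fit. The AMPA receptor subunits and their partners had 7 of 7 negative values in the proximal colon (median -1.05) and 9 of 9 in the distal colon (median -1.42), of which 2 and 1 were lower at an unadjusted p under 0.05. Gria4, an AMPA receptor subunit, had -2.24 (SE 0.91, unadjusted p = 0.0357 by edgeR) proximally and -2.52 (SE 0.99, unadjusted p = 0.0315) distally. Cnih2, which encodes another AMPA receptor partner, had -1.78 (SE 0.69, unadjusted p = 0.0300) in the proximal colon. Cacng7, a relative of Cacng4 and the highest of the list per length, had -0.22 (SE 0.49) and -0.20 (SE 0.32). Neurexins, neuroligins, cerebellins and the relatives of Lrrtm1 had 12 of 12 negative values (median -1.72) proximally and 10 of 10 (median -1.63) distally, with 4 and 2 at an unadjusted p under 0.05. Cbln2, a secreted partner of neurexins, had -6.68 (SE 1.41, unadjusted p = 0.00106 by edgeR) proximally and -5.49 (SE 1.97, unadjusted p = 0.0208) distally. Nlgn2, the highest of this list per length, had -0.77 (SE 0.66) and -0.16 (SE 0.50). Without HSCR proximal library 1, 0 genes of the AMPA receptor list and 1 of the neurexin list were lower at the unadjusted limit proximally, against 2.92% of all genes. Without HSCR distal library 1 the AMPA receptor list had 8 of 10 negative values and the neurexin list 11 of 11, against 47.6% of all genes. The neuron list was lower on average in HSCR mice too, and its part was not tested for them.

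The other lists had genes on both sides of 0. Among Rab27 effectors and myosins, 4 of 13 values were negative in each segment, with a median of 0.90 proximally and 0.13 distally. Rph3a, a Rab effector on synaptic vesicles, was the lowest of them, with -4.88 (SE 1.06, unadjusted p = 0.00125 by edgeR) and -5.89 (SE 1.56, unadjusted p = 0.00425). Rab27a, the partner of Myrip, had 0.04 (SE 0.33) and 0.04 (SE 0.36). The palmitoyltransferases and thioesterases had medians of 0.19 and 0.16 and no gene at an unadjusted p under 0.05 in either segment by edgeR. For calcineurin, its regulators and NFAT the medians were -0.27 and -0.26, with Nfatc2 at -1.02 (SE 0.36, unadjusted p = 0.0200) proximally and Rcan3 at -0.77 (SE 0.28, unadjusted p = 0.0242) distally. Ctnnb1, the beta-catenin gene, had 0.13 (SE 0.32) and -0.41 (SE 0.33). Of the Rnd GTPases, plexins and their partners, Plxnb2, a semaphorin receptor, was higher in the proximal colon, at 0.67 (SE 0.27, unadjusted p = 0.0345). The sialyltransferases had medians of 0.02 and 0.15, with St3gal1 and St3gal5 at 0.88 and 0.89 in the proximal colon and St8sia1, the ganglioside GD3 synthase, at -3.06 (SE 1.04, unadjusted p = 0.0160) in the distal colon. Asphd2 has 2 relatives in the list, of which Asph had 0.17 (SE 0.30) and 0.54 (SE 0.54).

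**Figure D5:**
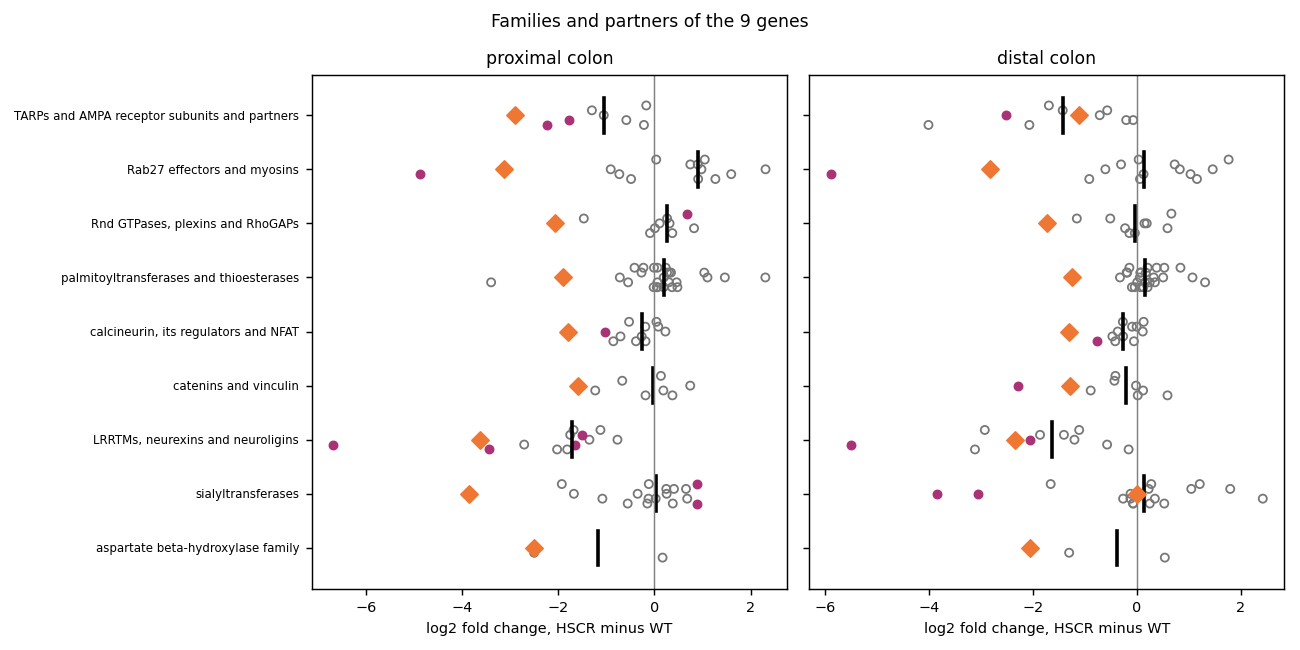
Log2 fold change, HSCR minus WT, of the tested family and partner genes of each of the 9 genes in the proximal (left) and distal (right) colon, with each list named for its content. Circles are genes, filled where the unadjusted p of edgeR's quasi-likelihood test was under 0.05, black lines are list medians and diamonds the gene that the list belongs to. The AMPA receptor and the neurexin lists lie to the left of 0 in all genes of this fit, and the other lists lie on both sides.

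Several of the genes share their place in the genome with another coding gene on the opposite strand, and no source used here states whether the counting used strand. This applies to Rnd2 with Vat1, Zdhhc2 with Cnot7, Ctnnal1 with Abitram, Asphd2 with Hps4 and St6galnac5 with Pigk. Lrrtm1 lies within Ctnna2, an alpha-catenin gene, which had a log2 fold change of -1.64 (SE 0.45, unadjusted p = 0.00533 by edgeR) proximally and -2.28 (SE 0.85, unadjusted p = 0.0254) distally. Reads from the overlapping parts of these pairs cannot be told apart without strand, and their counts are uncertain to that extent.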

How the data were processed

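RNA was measured in 16 libraries (4 per genotype and segment), grouped by genotype, segment and replicate number in the titles. Per the labels and methods, the authors used HISAT2 2.2.1 with the mm39 build for alignment, then featureCounts 2.0.6 with GENCODE annotation. The deposited counts are raw whole numbers. FPKM values, likewise deposited by the authors, served here only to compare levels between genes. Their own fold changes and p-values, also in the table, were not used. Of 56748 genes, 23907 had no count, no row lacked a gene, and 0 pairs of libraries were identical. No source used here says whether the proximal and distal libraries came from the same mice, so p-values within a segment measure the spread between its libraries.

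CPM was computed with TMM factors over the 16 libraries, and log2 CPM with a prior count of 0.5. Genotypes were compared within each segment with edgeR's quasi-likelihood test (edgeR 4.0.16 under R 4.3.3) after filterByExpr, adjusted by Benjamini-Hochberg over 16664 proximal and 17059 distal genes. All 9 genes passed the filter in both segments. The biological coefficient of variation was 0.715 and 0.737, so spread between libraries, more than depth, set the precision. Limits at 3 counts cover counting error only. The members, the lists of partner and marker genes and the alternatives were chosen with earlier results of these data known. The rule named the 9 genes, Ednrb, Elavl4, in each partner list the gene with the highest FPKM and those passing after adjustment (there were 0), the first genes of marker lists, the genes with the highest correlation over 16 libraries, and the genes nearest the limit of the choice. Hoxd13 and the partner genes named for an unadjusted p under 0.05 lie outside that rule and were chosen after their values were seen. The alternatives were other normalizations, filters and tests (limma 3.58.1 with voom and library quality weights, DESeq2 1.42.0), RUVr with 4 factors and the neuron list. Further ones were replicates 1 and 2 against 3 and 4 or the replicate number as a term, all 16 libraries in 1 fit, and leaving out each library. The fit was tested on simulated counts with known changes. Gene positions are those of the deposited table, and the stretches before the start come from the GRCm39 genome with GENCODE M39.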

Additional observations from a re-analysis of the deposited data

Results flagged for a closer look

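St6galnac5 had all 4 HSCR proximal libraries below the mean of the WT proximal libraries and all 4 HSCR distal libraries above the mean of the WT distal libraries on the log2 CPM scale, a difference of 1.27 (HSCR minus WT) in the distal colon. It rests on WT distal library 2, which held 0 reads of the gene, and in CPM 3 of the 4 HSCR distal libraries were below the WT mean of 1.30. The difference between the segments was not tested. This was the 1 flag in a screen of 44 groups of 4, where chance would give 2.2. The screen singled out no library, although HSCR distal library 1 stood far above the others of its group in Elavl4 and Ednrb. It therefore cannot show that no library is outlying.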

How the results depend on the processing

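The number of the 9 genes lower in the distal colon depended on the fit. RUVr with 4 factors and a likelihood ratio test called 8 of 9 after adjustment (8 at the unadjusted limit, against 10.9% of all genes) and 1544 genes in all. DESeq2 called 22 genes in all and 0 of the 9. With quality weights for the libraries, limma-voom gave 7 of 9 at the unadjusted limit (against 5.99%) and a median log2 fold change of -2.44. With the neuron list as a covariate 1 of 9 remained at that limit. Leaving out 1 library at a time gave 2 to 6 of 9 and a median between -2.19 and -1.17. The count was 6 without HSCR library 1 (against 4.13% of all genes). It was 2 without HSCR library 4 (against 1.33%) or WT library 2 (against 289 of 17750 genes). Genes with every HSCR below every WT library numbered 0 to 4, the 4 without WT library 1 (against 3.9%). With upper quartile sizes 1 gene was separated in this way, for which no share of all genes is given. For 7 genes the distal direction held under every alternative fit, though Asphd2 was at -0.04 (SE 0.55) with the neuron list. Within replicates 1 and 2 alone, Cacng4 and Asphd2 of these had higher means in HSCR distal libraries, by 0.16 and 1.01 log2 CPM. Lrrtm1 turned to 0.50 with the neuron list. St6galnac5 turned to 0.0070 with DESeq2, 1.52 with RUVr, 0.042 with all 16 libraries, 0.71 with replicates 1 and 2 against 3 and 4 as a term and 0.69 with the neuron list, and ranged from -0.79 to 0.57 without 1 library. The proximal direction was fixed by the choice of the genes and is no sign of stability. The causes were not tested.

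The replicate block put St6galnac5 at 0.88 and 5 of 9 genes at the unadjusted limit (against 2.15% of all genes), with 0 after adjustment. Same-numbered HSCR and WT libraries deviated together at correlations between -0.12 and 0.24 in the proximal and between -0.21 and 0.41 in the distal colon, so the numbers were not taken as pairs. Depth limits Cacng4, Lrrtm1, St6galnac5 and Asphd2, with 0 to 13 reads in some distal libraries. It also limits St6galnac5 in the HSCR proximal libraries, at 0.416 CPM or less.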
